A study of Mus musculus with 6 samples.

Results

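The genes followed mark testicular macrophages or encode their growth factor: Csf1, Csf1r, Adgre1, Cd163, Mrc1, Cx3cr1, C1qa, C1qb, C1qc and Cd68. They were chosen by name, and all 10 were found among the 22274 genes of the deposited table and were tested. Messenger RNA was counted in whole testes of mice at day 9 by the labels, where the event from which days were counted is not stated. Of 6 libraries, 3 came from mice labelled control and 3 from mice with a conditional Dcaf2 knockout, made by crossing floxed Dcaf2 with Stra8-Cre. Stra8-Cre is a recombinase driven by the promoter of a spermatogonial gene, so deletion is aimed at germ cells, and macrophages carry no planned deletion. DCAF2 is a substrate receptor of the CRL4 ubiquitin ligase, and the study asked whether it is needed for spermatogenesis. The labels do not give the alleles of the control mice, nor whether each numbered library is a separate animal, and p-values therefore reflect spread among libraries that may be technical in part.

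Macrophages are the main immune cells of the testis and lie between the tubules, close to Leydig cells and blood vessels, and along the tubule wall. CSF1, a secreted growth factor, keeps them alive through its receptor CSF1R, a tyrosine kinase of the macrophage lineage. They take up dead cells and debris, and they carry scavenger and lectin receptors such as CD163 and MRC1 (CD206). They are also a main source of C1q, the recognition molecule of the classical complement pathway. Interstitial macrophages of the mouse are known for CSF1R and MRC1, and peritubular macrophages for MHC class II, which appears on them as the testis matures.

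Library totals ran from 15407007 to 18372964 counts. In the knockouts, all 20 tested pan-germ-cell genes were lower (edgeR adjusted p under 0.05), with a median log2 fold change of -1.36. Of all tested genes, 13.9% were lower by the same test. This list, like the others, was chosen with earlier results of these data known. Ddx4, a helicase gene of the germ line, was at 196 ± 26.8 CPM in controls against 79.2 ± 10.3 CPM in the mutants (mean ± SD over 3 libraries each). The targeted gene, listed under its symbol Dtl, was at 42.6, 50.3 and 77.4 CPM in the controls, against 41.7, 43.8 and 51.5 CPM in the mutant libraries, with overlapping groups (log2 fold change -0.31, edgeR adjusted p = 0.281; -0.51 and 0.0321 without control library 1, and -0.02 without control library 3). A whole-gene count in a whole testis does not isolate the deleted part in germ cells. CPM is a gene's share of its library's counts after TMM scaling, so every value below depends on what else the library holds. In these bulk libraries changes in the number of macrophages, in RNA per macrophage and in the share of other cells cannot be told apart.

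Transcripts of the macrophage genes were mostly higher in the knockout testes, by modest amounts. Of the 10 members, 2 passed the test and rose, Mrc1 and Cx3cr1, and 0 fell (edgeR, Benjamini-Hochberg adjusted p under 0.05 over 14424 genes). Over all tested genes, 11.1% were called higher, 13.9% lower and 25.0% in either direction. The log2 fold change, knockout against control, was above 0 for 9 of the 10, with a median of 0.41, where the median of all tested genes was 0.03. Of all 14424 tested genes, 7611 had a value above 0. Each knockout library lay above each control library for 7 members, an arrangement that 22.5% of all tested genes also had (22.1% had the opposite one, and 44.6% either). Unadjusted edgeR p-values were under 0.05 for 4 of the 10 members, a share close to the 39.1% of all tested genes.

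The median was 0.32 without control library 2 and 0.33 without knockout library 1. Between 1 and 4 members were called when any 1 library was left out. The call rate over all genes moved as well, with 1355 genes called without knockout library 2 and 5255 without control library 1.

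**Figure D1:**
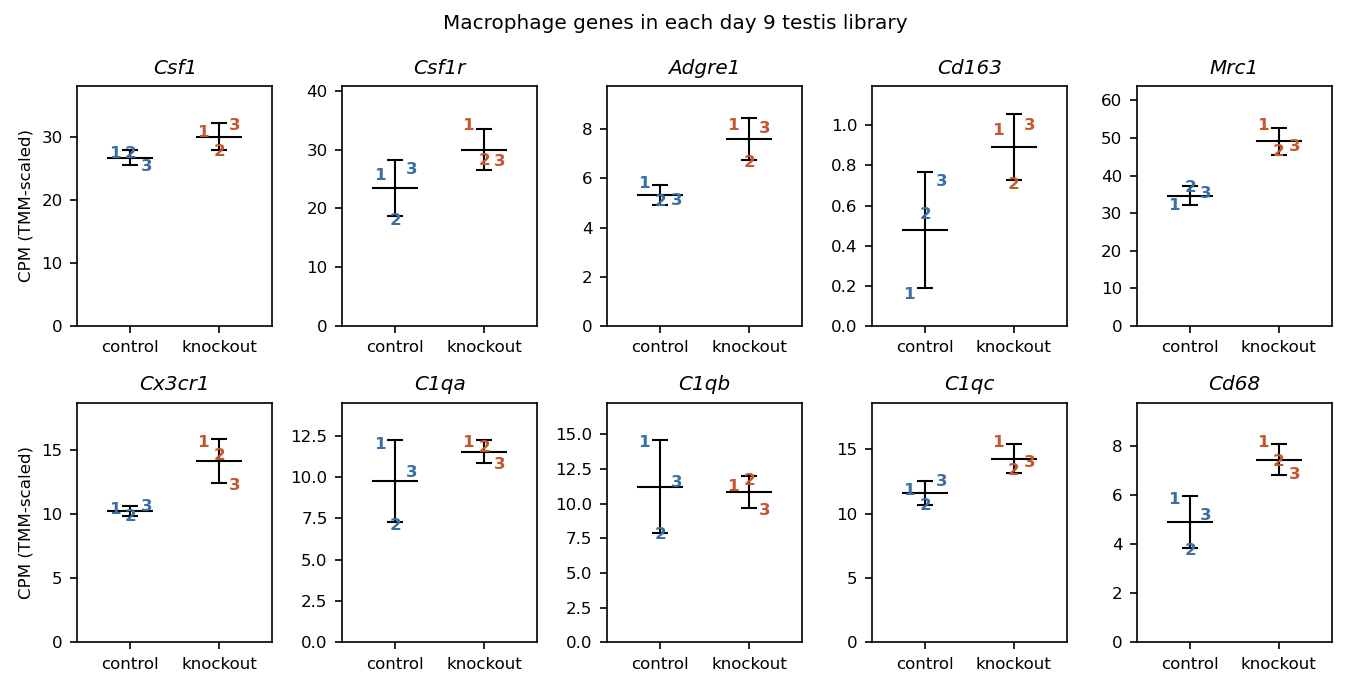
Level of each macrophage gene in CPM (vertical axis, from 0) in 3 control and 3 knockout libraries; the digits are the library numbers, horizontal bars the means and error bars the SD. The knockout libraries lie above the control libraries for 7 genes, and control library 2 is the lowest of the 6 for Csf1r, Adgre1, Cx3cr1, Cd68 and the C1q genes.

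Csf1, the growth factor gene, was read at 27.5, 27.4 and 25.4 CPM in controls 1, 2 and 3, against 30.8, 27.7 and 31.8 CPM in the mutant libraries. The groups did not overlap; knockout library 2 was close to the controls. Means were 26.7 ± 1.2 and 30.1 ± 2.13 CPM, a log2 fold change of 0.17 that did not pass (SE 0.102, with a 95% interval from -0.06 up to 0.40, edgeR adjusted p = 0.246). It was 0.10 with total-count scaling, 0.09 with limma on FPKM and 0.07 with the length trend removed.

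Csf1r, the receptor gene, was at 25.5, 17.95 and 26.7 CPM in the controls, against 34.0, 28.1 and 27.9 CPM in the mutant libraries. Control library 2 was the low one, and the gap between the highest control and the lowest knockout was narrow. Means of 23.4 ± 4.75 and 30.0 ± 3.47 CPM gave a log2 fold change of 0.36 (SE 0.162, with a 95% interval from -0.01 up to 0.73, edgeR adjusted p = 0.133). Without control library 2 the value was 0.19, and with the length trend removed it was 0.27.

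The ratio of receptor to ligand transcripts was compared within each library, where scaling cancels. Csf1r counts per Csf1 count were 0.929, 0.656 and 1.05 in the controls, against 1.11, 1.02 and 0.877 in the mutant libraries. These ranges overlapped (exact two-sided permutation p = 0.6, adjusted p = 0.8 over 4 ratios tested). The log2 difference of 0.21 moved between 0.01 without control library 2 and 0.35 without control library 3. From the deposited FPKM the ratios were 0.788, 0.67 and 1.07 in the controls, against 1.16, 1.09 and 1.10 in the mutant libraries. On that unit each knockout lay above each control, with a log2 difference of 0.43 (exact two-sided permutation p = 0.1, the smallest the design allows), so the overlap depends on the unit.

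Adgre1 encodes F4/80, the adhesion receptor by which mouse macrophages are commonly stained. Its level was 5.80, 5.07 and 5.11 CPM in the controls, against 8.13, 6.64 and 8.04 CPM in the mutant libraries. Every knockout library was above the controls. The log2 fold change was 0.51 (SE 0.172, with a 95% interval from 0.12 up to 0.90) and did not pass at an adjusted p = 0.0581 (edgeR), but did without control library 1 (0.55, adjusted p = 0.0417).

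Cd68, which encodes a glycoprotein of late endosomes and lysosomes in macrophages, was at 5.80, 3.74 and 5.17 CPM in the controls, against 8.13, 7.34 and 6.84 CPM in the mutant libraries. It was the member with the second-highest log2 fold change, 0.60 (SE 0.205, with a 95% interval from 0.14 up to 1.06, edgeR adjusted p = 0.0603). It passed with DESeq2 (0.59, adjusted p = 0.0462) and without control library 1 (0.72, edgeR adjusted p = 0.0239). With the trend of fold change on gene length removed, Cd68 was at 0.76 and Adgre1 at 0.49, and both passed (edgeR adjusted p = 0.00937 and 0.0472), where 14.1% of all genes were called higher.

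Mrc1, the mannose receptor gene, was the most abundant member by CPM. It was at 31.9, 36.7 and 35.3 CPM in the controls, against 53.2, 46.4 and 47.6 CPM in the mutant libraries. The lowest knockout stood well above the highest control. Means rose from 34.7 ± 2.48 to 49.1 ± 3.61 CPM, 1.42-fold (0.50 on the log2 scale with SE 0.1; adjusted p = 0.00859 by edgeR). Leaving out any 1 library kept the call, at 0.42 to 0.54 (adjusted p = 0.00668 to 0.0498). With the length trend removed Mrc1 was at 0.31 and still passed (edgeR adjusted p = 0.0182).

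Cx3cr1, the receptor for fractalkine, was at 10.4, 9.81 and 10.6 CPM in the controls, which agreed closely, and at 15.6, 14.6 and 12.3 CPM in the knockouts. Knockout library 3 was the closest to the controls. Means rose from 10.3 ± 0.4 to 14.2 ± 1.71 CPM, 1.38-fold (0.47 on the log2 scale with SE 0.141; adjusted p = 0.0397 by edgeR). The call did not hold when control 2 or 3, or knockout 1 or 2, was dropped (0.40 to 0.49, adjusted p = 0.0762 to 0.154), nor with upper-quartile scaling, total-count scaling, limma on FPKM or the library number as a block (adjusted p = 0.0623, 0.0741, 0.0927 and 0.0837). Its ligand gene Cx3cl1 was at 41.5 ± 2.24 and 45.8 ± 3.3 CPM, with overlapping groups (0.14, 95% interval -0.07 to 0.36, edgeR adjusted p = 0.293).

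Cd163, the haemoglobin scavenger receptor gene, was close to the limit of detection. The controls held 3, 10 and 12 counts and the knockouts 15, 12 and 15. The groups overlapped, and control library 1 was the low one. Its log2 fold change of 0.90 had a 95% interval of -0.21 to 2.02 (edgeR adjusted p = 0.206), the widest of the members, and was 0.45 without control library 1 and 0.54 with limma on FPKM. It reached the filter on low counts in all 3 knockouts but in 1 control, so its place among the tested genes leaned on the group where it was higher. The 9 other members had a median of 0.36.

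**Figure D2:**
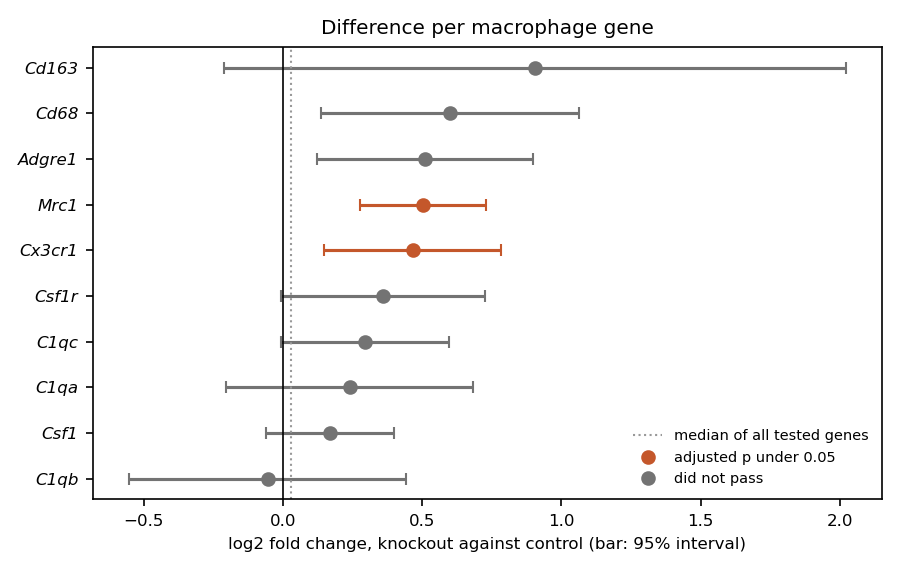
Log2 fold change of each macrophage gene, knockout against control (horizontal axis), with its 95% interval; orange marks adjusted p under 0.05 and the dotted line the median of all tested genes. Mrc1 and Cx3cr1 passed, C1qb lies at -0.06 and the interval of Cd163 reaches from -0.21 to 2.02.

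The C1q molecule is built from 3 kinds of chain, encoded by C1qa, C1qb and C1qc. In the RefSeq gene table the 3 genes are neighbours on chromosome 4, with 0 other genes between them. None of the 3 passed the test. C1qa was at 12.0, 7.08 and 10.3 CPM in the controls, against 12.1, 11.8 and 10.8 CPM in the mutant libraries (log2 fold change 0.24, 95% interval -0.20 to 0.68, edgeR adjusted p = 0.397). Its value was 0.04 without control library 2 and 0.39 without control library 1. C1qb was at 14.4, 7.75 and 11.5 CPM and at 11.3, 11.7 and 9.50 CPM (-0.06, 95% interval -0.55 to 0.44, adjusted p = 0.874), and its sign turned without control library 1 (0.14) or knockout library 3 (0.03).

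C1qc was at 11.8, 10.7 and 12.5 CPM in the controls, against 15.5, 13.3 and 13.95 CPM in the mutant libraries, with no overlap (0.29, 95% interval -0.01 to 0.60, edgeR adjusted p = 0.136). For C1qa and C1qb the control libraries spread far more than the knockouts, with coefficients of variation of 25.4% and 29.7% against 6.08% and 10.7%. Control library 1 was high and control library 2 low for both. C1qc varied by 8.02% in the controls and about as much in the knockouts. With the length trend removed, C1qa and C1qc passed, at 0.43 and 0.44 (edgeR adjusted p = 0.0474 and 0.0368).

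Ratios between chains, which do not depend on library scaling, were also computed. C1qa counts per C1qb count were 0.832, 0.914 and 0.891 in the controls, against 1.075, 1.01 and 1.13 in the mutant libraries, so each knockout lay above each control. With 3 libraries a group this reaches the smallest p the design allows (exact two-sided permutation p = 0.1, adjusted p = 0.4 over 4 ratios). C1qb counts per C1qc count were 1.22, 0.728 and 0.923 against 0.724, 0.877 and 0.681 (exact permutation p = 0.2). C1qa per C1qc differed by -0.02 on the log2 scale (exact permutation p = 1).

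Sequence before the transcript start is shown for the members that rose and for 2 of the C1q genes, neighbours of which one had all knockouts above the controls and the other did not. The 250 bases are from RefSeq (GRCm38.p6), on the strand of the gene, from the start table that held 7 of the 10 members. Capitals mark GAGGAA, or TTCCTC where it lies on the other strand, the core letters of a site for PU.1, the myeloid transcription factor encoded by Spi1. The regions are chr2:14229164-14229413 (plus strand) for Mrc1, chr9:120068297-120068546 (minus) for Cx3cr1, chr4:136886201-136886450 (minus) for C1qb and chr4:136892915-136893164 (minus) for C1qc.
Mrc1: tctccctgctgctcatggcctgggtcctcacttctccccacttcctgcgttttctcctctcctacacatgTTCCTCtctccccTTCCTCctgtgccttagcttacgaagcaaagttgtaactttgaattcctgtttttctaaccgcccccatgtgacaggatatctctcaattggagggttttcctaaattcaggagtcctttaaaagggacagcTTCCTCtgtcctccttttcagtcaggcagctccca
Cx3cr1: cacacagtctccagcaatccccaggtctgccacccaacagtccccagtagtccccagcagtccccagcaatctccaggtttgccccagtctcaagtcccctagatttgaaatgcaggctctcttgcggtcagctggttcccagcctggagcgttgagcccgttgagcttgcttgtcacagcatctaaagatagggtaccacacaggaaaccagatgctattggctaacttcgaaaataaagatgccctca
C1qb: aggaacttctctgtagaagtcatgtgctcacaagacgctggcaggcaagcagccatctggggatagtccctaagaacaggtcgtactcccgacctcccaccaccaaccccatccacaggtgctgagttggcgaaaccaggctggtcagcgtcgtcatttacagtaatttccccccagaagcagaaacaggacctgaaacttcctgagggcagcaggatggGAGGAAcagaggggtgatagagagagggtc
C1qc: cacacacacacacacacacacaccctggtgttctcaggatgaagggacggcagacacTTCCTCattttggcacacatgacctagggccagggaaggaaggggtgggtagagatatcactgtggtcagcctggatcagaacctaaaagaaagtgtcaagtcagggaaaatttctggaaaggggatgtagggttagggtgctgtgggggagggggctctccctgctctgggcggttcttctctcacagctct

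Mrc1 held 3 matches, C1qb and C1qc 1 each and Cx3cr1 0. Of the 7 members with a sequence, 4 held at least 1 match, as did 23.3% of all 32851 start regions of the same length. A match is only a run of letters, and its absence says nothing of the factor. Spi1 itself, named here because of this motif, was at 1.39 ± 0.378 and 2.09 ± 0.266 CPM (a log2 difference of 0.58, adjusted p = 0.175 by edgeR).

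Per transcript length, in FPKM as deposited, the C1q genes had the highest control means of the members. C1qb was at 10.6 ± 3.28, C1qc at 9.90 ± 0.944 and C1qa at 9.64 ± 2.57 FPKM, which differ by less than their spread. The order did not hold in each library: in control library 2, C1qa was at 6.83, Mrc1 at 6.86 and Csf1 at 6.85 FPKM. Csf1 at 7.10 ± 0.646, Mrc1 at 6.60 ± 0.405 and Csf1r at 5.95 ± 1.26 FPKM followed, again with each neighbour inside the spread. Cd68 (4.11 ± 0.903), Cx3cr1 (3.06 ± 0.134), Adgre1 (1.69 ± 0.144) and Cd163 (0.113 ± 0.0666) were lower. In the knockouts the order at the top was C1qc at 11.6 ± 1.01, C1qa at 10.9 ± 0.678, C1qb at 9.70 ± 1.02, Mrc1 at 8.93 ± 0.718 and Csf1r at 8.40 ± 0.583 FPKM, with Csf1 at 7.52 ± 0.333 FPKM behind them.

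The zero point of the fold changes, and with it the calls, depends on the scale, which shifts all genes of a library together. Relative to 20 Sertoli cell genes, the median of the members was -0.002 and 0 of 10 were called, where 39.4% of all genes were, nearly all as lower, with Mrc1 at 0.08 and Cx3cr1 at 0.05 (edgeR adjusted p = 0.728 and 0.844), and the values of Csf1, Csf1r, C1qa and C1qc turned below 0. Sertoli cells are the somatic cells inside the tubule. That scaling moved the median of all tested genes to -0.38, so the members stood about as far above it as before. Relative to the pan-germ-cell genes, all 10 members were called higher, as were 92.2% of all genes, so that this count says little about the members. Their median was 1.80 on that scale and the median of all genes 1.42.

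**Figure D3:**
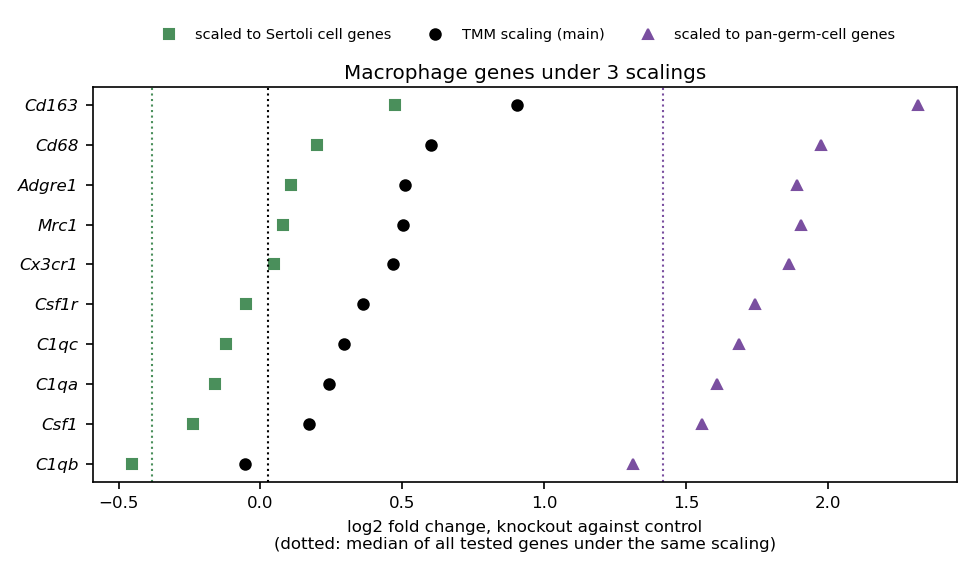
Log2 fold change of each macrophage gene (horizontal axis) under 3 scalings, with dotted lines for the median of all tested genes under each. Scaled to Sertoli cell genes the members lie on both sides of 0, around a median of -0.002, and scaled to pan-germ-cell genes all are called higher, as are 92.2% of all genes.

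Transcripts of other somatic cells were mostly higher in the same libraries. The median log2 fold change was 0.43 over 20 Sertoli cell genes (10 higher, 0 lower), 0.56 over 11 Leydig cell genes (3 higher), 0.47 over 11 stroma genes (7 higher), 0.30 over 12 endothelial genes (5 higher) and 0.26 over 10 peritubular myoid genes (2 higher). For comparison, 11.1% of all tested genes were called higher and 13.9% lower. Sox9 at 0.44, Pdgfra at 0.82 and Pecam1 at 0.48 passed (edgeR adjusted p = 0.028, 0.00189 and 0.0135). Star at 1.09 did not, with overlapping groups (95% interval -0.05 to 2.23, adjusted p = 0.142), nor did Acta2 at -0.15 (adjusted p = 0.278). Whether any of these lists differs from the macrophage members was not tested.

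Markers of other white blood cells were low. Of 12 T, B and NK cell genes, 2 were tested, and Cd3e of the T cell receptor complex fell from 0.942 ± 0.222 to 0.191 ± 0.174 CPM (-2.26, edgeR adjusted p = 0.0199), on 59 counts in all, and reached the filter through the controls. The other tested gene, Lck, a T cell kinase gene, was at 1.604 ± 0.386 and 1.82 ± 0.455 CPM (0.19, edgeR adjusted p = 0.681). Under the filter, others of the receptor complex went both ways, with Cd3g at 0.494 ± 0.249 and 0.642 ± 0.26 CPM. Cd247 was at 0.683 ± 0.415 and 0.169 ± 0.166 CPM, with overlapping groups, and Cd3d had 3 counts in all. The Cd3e call was lost without control library 3 or knockout library 2 or 3 (adjusted p = 0.0733 to 0.0939). The summed level of the 12 genes was 4.35 to 6.60 CPM in controls and 4.10 to 5.52 CPM in knockouts. Of 11 neutrophil and mast cell genes 5 were tested and 0 passed, including by unadjusted p for all but 1. Among them Elane, Ly6g, Retnlg and Fcer1a had 0 counts in every library, and S100a8 was at 0.284 ± 0.441 and 0.485 ± 0.534 CPM. The sum of the 11 was 2.95 to 7.60 and 7.52 to 11.4 CPM. Globin and other erythroid genes did not pass (0 of 5, median -0.21), with Hba-a1 at 85.1 ± 62.9 and 65.0 ± 27 CPM. Globin genes were not low and spread widely among the controls, with Hbb-bs at 165.5 ± 116.6 and 137.1 ± 43.3 CPM. The part of these cells in the macrophage values was not tested.

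Beyond the members, 9 lists of genes tied to macrophage life held 116 further genes, of which 96 were tested, 15 rose and 3 fell (edgeR), with a median of 0.28. For 6 of the 96 the filter was reached in more knockouts than controls, and without them the median was 0.26. The percentages of all genes called, and the number of all genes with a value above 0, are those given for the members. Counts were 7 to 28 with any 1 library left out: 28 when control 1 was dropped, 11 for control 3, and 7, 7 and 10 for knockouts 1, 2 and 3. Relative to Sertoli cell genes the split was 1 higher and 17 lower, and the higher calls named below did not hold on that scale. Many of these genes are also made by other testis cells.

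**Figure D4:**
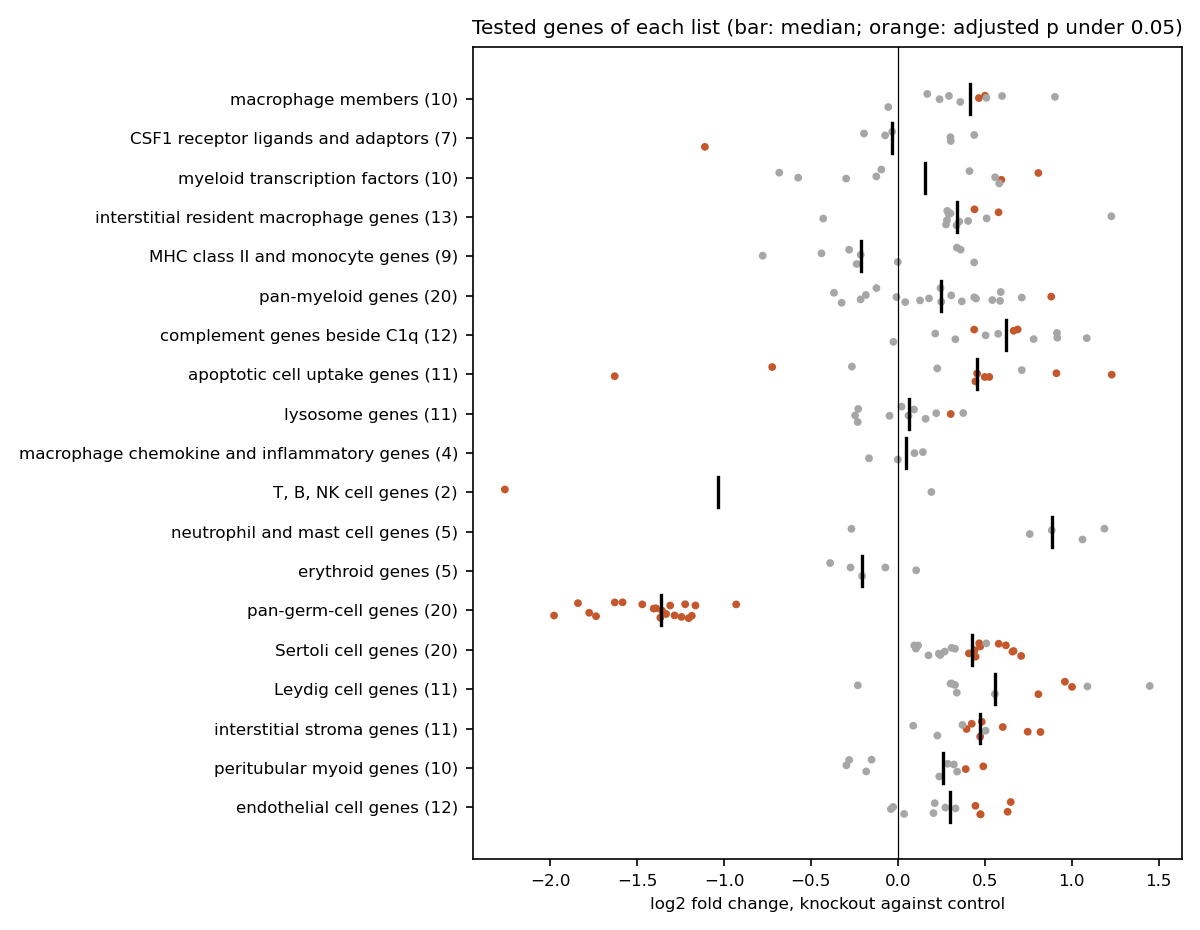
Log2 fold change of every tested gene (horizontal axis) in each list, with the number tested in brackets; bars are medians and orange points have adjusted p under 0.05. The macrophage members have a median of 0.41, the pan-germ-cell genes -1.36, and the MHC class II and monocyte genes lie on both sides of 0.

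Of 10 myeloid transcription factor genes, 2 rose and 0 fell, 5 of the 10 values were above 0 and the median was 0.16. It turned to -0.10 without Tfec, which reached the filter in 1 control and 3 knockouts. Irf5 was at -0.57 and Ikzf1 at -0.68, each with every knockout below every control. They did not pass (edgeR adjusted p = 0.0551 and 0.0577) and were named after their values were seen. Maf, which encodes a leucine zipper factor of mature macrophages, was at 45.3, 39.2 and 39.6 CPM in the controls, against 65.8, 60.2 and 61.6 CPM in the mutant libraries. The groups were well apart, and means rose to 62.5 ± 2.93 CPM from 41.4 ± 3.4 CPM (0.60; adjusted p = 0.00389 by edgeR). The call was kept with any 1 library left out (0.55 to 0.64). MAF is also found in other testis cells.

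Interstitial resident genes were also mostly above 0: 2 of 13 tested genes rose, 0 fell, and 12 of 13 values were above 0, with a median of 0.34. Marco, a scavenger receptor gene at 1.23, reached the filter in 0 controls and all 3 knockouts, and Siglec1 in fewer controls than knockouts. Without these 2, 10 of 11 values were above 0 and the median was 0.30. Stab1, a scavenger receptor gene of macrophages and of some endothelium, was at 30.1, 30.9 and 33.5 CPM in the controls, against 52.0, 42.6 and 46.7 CPM in the mutant libraries. Its groups were well apart (0.58, SE 0.105, edgeR adjusted p = 0.00597), but the call was lost with the length trend removed. F13a1, the coagulation factor XIII A chain gene, went up from 20.3 ± 1.91 to 27.5 ± 3.39 CPM (0.44, adjusted p = 0.0356), a call lost when control 3 or any 1 knockout was dropped (adjusted p = 0.0677 to 0.143), and with limma on FPKM (0.105), total-count scaling (0.0612) or the replicate block (0.0652).

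Genes of MHC class II and monocytes showed 0 of 9 tested genes called, also 0 at an unadjusted p under 0.05, and a median of -0.21. H2-Aa, a class II chain, was at 3.43, 1.95 and 2.52 CPM in the controls, against 1.82, 1.70 and 2.33 CPM in the mutant libraries, with overlapping groups (-0.44, 95% interval -1.09 to 0.22, edgeR adjusted p = 0.29). It was -0.22 without control library 1. Plac8 was at 0.36 (adjusted p = 0.322), at 0.59 without control library 1, 0.19 without control library 3 and 0.23 without knockout library 1. Both genes were read at low levels, and the interval of H2-Aa includes 0.

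Among 20 pan-myeloid genes, 1 rose and 0 fell, with a median of 0.25. It was Itgam, the integrin chain CD11b, at 1.56 ± 0.312 and 2.89 ± 0.571 CPM (0.88, edgeR adjusted p = 0.045), and the call did not hold when control 2 or 3 or any 1 knockout was dropped (adjusted p = 0.053 to 0.171). It was kept in 6 of 18 alternatives, and also lost with limma on FPKM (0.117), upper-quartile (0.0527) and total-count scaling (0.0591), no filter (0.0554), the length trend removed (0.0643) and the replicate block (0.0628, all adjusted p). Cd33, a sialic acid receptor gene, was at 2.46 ± 0.609 and 4.02 ± 0.597 CPM (0.71, adjusted p = 0.0715). Of 7 tested genes around CSF1R signalling, 1 fell and 0 rose. Plcg2, a phospholipase gene of immune receptors, fell from 25.1 ± 4.02 to 11.6 ± 1.4 CPM (-1.11, edgeR adjusted p = 0.00239), but was at 0.30 relative to pan-germ-cell genes (adjusted p = 0.111). Csf2ra was at 0.30 (adjusted p = 0.145).

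Complement genes other than C1q gave 3 higher and 0 lower of 12, with 11 values above 0 and a median of 0.62. C5ar1, the C5a receptor gene and the highest of them at 1.09, reached the filter in 1 control and all 3 knockouts, and without it the median was 0.58. C1s1, a serine protease that C1q carries, rose from 105 ± 3.76 to 142 ± 13.5 CPM (0.44; adjusted p = 0.0145 by edgeR, but 0.0731 or 0.0736 without knockout library 1 or 2). Cd93, a receptor once linked to C1q and also found on endothelium, rose from 29.1 ± 3.33 to 46.2 ± 3.45 CPM (0.67, adjusted p = 0.00458).

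Of 11 genes for the uptake of apoptotic cells, 6 rose and 2 fell. Axl and Tyro3, receptor kinases of the TAM family that bind dying cells through bridging proteins, stood far above any member in CPM, and Sertoli cells are known to make them. Axl rose from 485 ± 18.5 to 699 ± 30.0 CPM (0.53; adjusted p = 0.00455 by edgeR). Tyro3 went from 477 ± 49 to 674 ± 46.9 CPM (0.50, adjusted p = 0.0121; 0.0655 and 0.0662 without knockout library 1 or 2). Megf10 went up from 0.82 ± 0.211 to 1.94 ± 0.0695 CPM (1.23, adjusted p = 0.0183), and lost the call when control 3 or any 1 knockout was dropped (adjusted p = 0.0574 to 0.0778) and with limma on FPKM (0.76, adjusted p = 0.0702). Adgrb1, a receptor gene for phosphatidylserine, fell from 3.74 ± 0.545 to 1.21 ± 0.221 CPM (-1.63, adjusted p = 0.00374), a call lost relative to pan-germ-cell genes. The other one that fell was Stab2 (-0.72, adjusted p = 0.0357), picked once its value was known, whose call was lost without any 1 library except control library 1 (adjusted p = 0.0599 to 0.129), with limma on FPKM (0.0695) and with the replicate block (0.0599), and whose sign turned relative to pan-germ-cell genes (0.69).

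Lysosome genes, which every cell uses, had 1 of 11 higher and a median of 0.06. Lamp2, a lysosomal membrane protein gene, went up from 232 ± 2.12 to 286 ± 19.1 CPM (0.30, edgeR adjusted p = 0.037) but was at -0.12 relative to Sertoli cell genes and lost the call when control 3 or any 1 knockout was dropped (adjusted p = 0.0621 to 0.172). The Lamp2 call was also lost with limma on FPKM (adjusted p = 0.0965), without the filter (0.0545), with the replicate block (0.0859), and with scaling to the upper quartile (0.0561) or the total count (0.0808). Of 15 chemokine and inflammatory genes, 4 reached the filter, of which 0 were called and 0 had an unadjusted p under 0.05 (edgeR). The 11 others were under the filter, among them Il1b, Il6, Il10 and Cxcl2 at 0 or 1 count in all 6 libraries together. Ccl7 was at 0.588 ± 0.31 and 0.532 ± 0.371 CPM (-0.17, 95% interval -1.53 to 1.201, adjusted p = 0.86), with a sign that turned without control library 2 (0.15) or knockout library 1 (0.22).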

How the data were processed

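Messenger RNA was measured in 6 whole-testis libraries, 3 control and 3 knockout. The authors deposited 1 table, where each gene has a count and an FPKM for every library. Per the submitters' processing notes, StringTie 1.3.1 and RSEM were used, without their roles. The sources used here give no aligner, build, annotation release or strand setting. The deposited counts are whole numbers and were taken as estimated counts rounded by the authors, because in each library 3 to 21 genes show an FPKM above 0 with 0 counts. FPKM, as deposited by the authors, is scaled to length and library size and serves here for levels between genes and for 1 alternative.

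Genes were named by Ensembl ID through the supplied gene table (22219 of 22274 IDs). The deposited symbol Cd163 stands on 2 rows, and the row whose ID belongs to Cd163 in that table was used. Genes passing filterByExpr at a minimum count of 10 (14424 genes, all but 0.063% of counts) were scaled by TMM and tested with edgeR 4.0.16 (glmQLFit, glmQLFTest, R 4.3.3), with Benjamini-Hochberg adjustment over all of them and a threshold of 0.05. The SE is the log2 fold change divided by the square root of F. The scripts were tested on simulated data.

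Named genes were the 10 members, the called genes of each macrophage list (up to 4 by p, or the 2 with the smallest p where fewer than 2 were called), Dtl, and the first gene of each other list. The 5 genes most like the members by Pearson r over the libraries were also taken. Some genes that this rule takes are not reported here. Members and lists were chosen with earlier results of these data known. Alternatives were DESeq2 1.42.0, limma-voom and limma 3.58.1 on log2(FPKM + 0.1), 5 scalings, 2 filters, a length trend removed (lowess span 0.3), the replicate number as a block, and each library left out. The alternatives for the ratios (FPKM, each library left out) and for the named genes that are not members, and list medians without genes that reached the filter in more knockouts than controls, were chosen after seeing the data. Genes with few counts, such as Cd163, are limited by counting error.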

Additional observations from a re-analysis of the deposited data

How the results depend on the processing

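All results below are log2 fold changes or counts of calls from edgeR unless another tool is named. The number of called members (2) was 1 with limma on FPKM, upper-quartile scaling, total-count scaling or the replicate block, 0 with scaling to Sertoli genes, 6 with the length trend removed and 10 with scaling to pan-germ-cell genes, and 1 to 4 with a library left out. Calls gained with the length trend removed were Adgre1, C1qa, C1qc and Cd68. The other macrophage genes called (18) numbered 10 with limma on FPKM, 29 with the length trend removed, 89 with scaling to pan-germ-cell genes and 7 to 28 with a library left out. All called genes (3607) numbered 5684 (44 higher, 5640 lower) scaled to Sertoli genes, 13423 (13304 higher, 119 lower) scaled to pan-germ-cell genes, and 1355 to 5255 with a library left out. Total-count scaling gave 1109 higher against 2424 lower (1599 and 2008 with TMM), and limma on FPKM 855 against 2187. The median of the members (0.41) was -0.002 scaled to Sertoli genes, 1.80 scaled to pan-germ-cell genes and 0.32 to 0.47 with a library left out; the other alternatives moved it by less than the spread between knockout libraries (SD 0.17).

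Signs turned in single genes. Scaled to Sertoli genes the values were -0.24 for Csf1, -0.052 for Csf1r, -0.16 for C1qa, -0.12 for C1qc, -0.10 for Csf2ra, -0.022 for Plac8, -0.12 for Lamp2, -0.28 for Cx3cl1, -0.12 for Mindy1 and -0.035 for Aebp1. Scaled to pan-germ-cell genes they were 1.31 for C1qb, 0.30 for Plcg2, 0.92 for H2-Aa, 1.204 for Ccl7, 0.69 for Stab2 and 1.11 for Dtl. With the length trend removed C1qb was at 0.13 and Ccl7 at 0.024. Leaving out a library gave C1qb -0.27 to 0.14, Ccl7 -0.80 to 0.22 and the log2 ratio of C1qa to C1qc -0.18 to 0.13. Each scaling to a cell type list sets changes relative to that list by construction. The cause of the other shifts was not tested, except that leaving out a library reduces the sample number.

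No pairing by library number was seen: deviations from the group means correlated at -0.07, -0.08 and 0.07 between same-numbered libraries. Between libraries of unlike number the values ran from -0.224 to 0.225. With 3 libraries a group, such correlations cannot decide whether libraries were paired. With the replicate block 1 member was called, Mrc1 at 0.50, and 13 other macrophage genes.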

Other observations

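Genes whose level across the 6 libraries was most like the members were looked up among 12915 genes outside them, whose mean log2 CPM reached 1. The reference was the mean standardised log2 CPM of the 9 members other than Csf1, which was -0.36, -1.25 and -0.29 in control libraries 1, 2 and 3 and 1.02, 0.48 and 0.40 in the knockouts. The 5 closest were Sema4c, a semaphorin gene (Pearson r = 0.989), Mindy1 (0.987), Aebp1, of connective tissue (0.987), Lrrc8e (0.987) and Ctsc, the protease cathepsin C (0.987). They are a description over 6 libraries of 2 groups, and with so many candidates high values of r are common. Over 73 of the other macrophage genes the median r was 0.68, and over all candidates 0.12. The reference was lower in each control than in each knockout, so r follows any difference between the groups. Values of r for the lists of other somatic cells were not summarised.

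Tested mast cell genes were low, with higher means in the knockouts, without passing the test. Cma1, the gene of a mast cell chymase, was at 0.885 ± 0.291 and 1.88 ± 0.621 CPM (a log2 difference of 1.06, adjusted p = 0.0659 by edgeR), and Cpa3, of mast cell carboxypeptidase, at 1.09 ± 0.495 and 2.03 ± 0.847 CPM (0.89, adjusted p = 0.159). The Cpa3 groups overlapped, and Cpa3 reached the filter in more knockouts than controls. Groups also overlapped for Tpsb2 (1.19) and Mcpt4 (0.76), with edgeR adjusted p = 0.13 and 0.131. These genes were named after their values were seen.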
